A study of Mus musculus with 18 samples.

Results

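The genes described here are 9 markers of hair follicle stem cells, Cd34, Krt15, Lgr5, Lgr6, Lrig1, Postn, Fgf18, Cd200 and Plet1, taken by symbol from the 23951 genes of an expression table of mouse ear skin cells. Polyadenylated RNA of 18 sorted samples was sequenced, 3 mice in each of 6 groups. Levels are FPKM, fragments scaled to transcript length and library size, a unit that allows levels of different genes to be compared per length. Mice were 8 weeks old at the start, of mixed background and of both sexes (the sex of each mouse was not given), received 4 daily injections of 2 mg tamoxifen into the peritoneum, and were sampled at day 7. The DKO*-mT/mG mice (814, 815 and 817) carried floxed alleles of both JunB and c-Jun (JunB f/f c-Jun f/f), the K5-Cre-ERT transgene and the mT/mG reporter. The controls (Co, mice 810, 825 and 828) carried the K5-driven Cre and the reporter with wild-type (+/+) or heterozygous floxed (+/f) JunB and c-Jun, and which of these each mouse had was not given. All groups therefore shared the Cre, the reporter and the tamoxifen. The reporter turns from membrane Tomato to membrane GFP in a cell in which Cre has acted, so that each DKO*-mT/mG mouse gave mutant GFP cells and non-mutant Tom cells from the same animal. The Cre is driven by a keratin promoter and acted in part of the keratinocytes only, and Tom cells are unrecombined neighbours in mutant skin, not cells of an untouched mouse. After the epidermis was separated from the dermis, CD45- CD49f-high CD34+ cells were sorted as hair follicle stem cells (HF-SCs) and CD45- CD49f-high CD34- cells as basal keratinocytes (b-KCs). The groups were thus Co, GFP and Tom, each as HF-SCs and as b-KCs. The labels name no reporter colour for the Co libraries, so as labelled the Co cells were not split into GFP and Tom cells. A difference of GFP or Tom cells from Co can therefore include an effect of the colour gate, which cannot be told apart here.

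Hair follicle stem cells rest for long periods in the bulge, below the sebaceous gland, and are called into division at the start of each new hair cycle. CD34 is the surface glycoprotein by which mouse bulge cells are sorted, and CD200 is a surface glycoprotein that restrains myeloid cells through its receptor. Keratin 15 is a basal keratin enriched in the bulge. Lgr5 and Lgr6 are receptors for R-spondins, which raise Wnt signalling. Lgr5 marks the lower bulge and hair germ, and Lgr6 marks cells of the isthmus and also of the interfollicular epidermis. Lrig1, a transmembrane protein that restrains ErbB receptors, marks the junctional zone of the upper follicle. Plet1, a membrane-anchored antigen, is a marker of the same upper region. Periostin (Postn) is a matricellular protein that binds integrins, and Fgf18 is a secreted growth factor that holds the follicle at rest. Jun and JunB are subunits of the AP-1 transcription factor, which binds the palindrome TGACTCA.

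Promoter sequence is shown for 3 members: Plet1, the member that was higher in mutant cells of both sorts, Cd34, the gene of the gate, which was lower in HF-SCs of mutant skin, and Postn, which was lower there too and was not called in b-KCs. In the annotation of NCBI37, the build used for mapping, Plet1 (annotated as 1600029D21Rik) lies at chr9:50302630-50313744 on the plus strand, Cd34 at chr1:196765015-196787486 on the plus strand and Postn at chr3:54165031-54194961 on the plus strand. Krt15 lies at chr11:99993072-99997263, Fgf18 at chr11:33017430-33047400, Lgr5 at chr10:114887367-115024836, Lgr6 at chr1:136882925-137001853, Lrig1 at chr6:94554523-94650152 and Cd200 at chr16:45382248-45409166, all on the minus strand. Reads were counted without strand, and Cd34 overlaps Gm16897 and Lrig1 overlaps Slc25a26, so reads in the shared stretches cannot be assigned with certainty. The sequences below are the 250 bases before a RefSeq start, 5′ to 3′, from the GRCm38.p6 build at chr9:50494275-50494524, chr1:194938571-194938820 and chr3:54360857-54361106, all on the plus strand. Postn has another RefSeq start, whose 250 bases (chr3:54359017-54359266) hold none of the motifs searched and are not shown. Capitals mark a match to TGANTCA (the AP-1 palindrome with any middle base) or to TATAAA, read on both strands.
Plet1: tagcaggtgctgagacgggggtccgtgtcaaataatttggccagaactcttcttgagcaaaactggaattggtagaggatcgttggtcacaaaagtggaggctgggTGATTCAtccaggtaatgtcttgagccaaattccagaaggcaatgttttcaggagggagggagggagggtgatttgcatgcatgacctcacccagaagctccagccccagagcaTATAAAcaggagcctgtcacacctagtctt
Cd34: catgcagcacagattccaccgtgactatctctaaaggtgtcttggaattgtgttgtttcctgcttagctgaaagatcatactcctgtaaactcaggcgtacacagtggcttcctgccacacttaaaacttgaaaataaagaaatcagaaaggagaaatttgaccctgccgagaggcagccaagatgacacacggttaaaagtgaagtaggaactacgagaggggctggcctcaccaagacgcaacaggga
Postn: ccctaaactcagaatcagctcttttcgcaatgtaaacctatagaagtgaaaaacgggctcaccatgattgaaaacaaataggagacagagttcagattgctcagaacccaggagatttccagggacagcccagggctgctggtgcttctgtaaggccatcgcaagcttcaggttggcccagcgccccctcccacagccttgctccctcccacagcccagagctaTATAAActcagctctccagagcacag
Promoters were held for 7 of the 9 members (not for Krt15 and Lgr5). TGANTCA occurred in 1 of these 7, in Plet1, with its first base 144 bases before the start, against 6.75% of all 32851 promoters of this length. The consensus TGACTCA, which is contained in TGANTCA, occurred in 0 of 7 members and in 4.46% of all promoters, so the Plet1 match has another middle base. The cyclic-AMP type element TGACGTCA occurred in 0 of 7 and in 1.55% of all, the Tcf/Lef core AACAAAG in 0 of 7 and in 5.03%, and TATAAA in 2 of 7 (Plet1 and Postn) and in 12.4%. A match describes the letters in this window and is not a binding site.

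Read totals implied by the table lay between 16509600 and 26283500 per library, and 3 reads on a transcript of 1 kb corresponded to 0.114 to 0.182 FPKM. Jun and Junb, the deleted genes, were at 835 to 1086 and 436 to 463 FPKM in HF-SC Co, at 30.4 to 88.4 and 38.6 to 77.5 in HF-SC GFP and at 308 to 614 and 251 to 402 in HF-SC Tom. In b-KCs they were at 876 to 1000 and 737 to 772 in Co, at 29.6 to 65.4 and 37.2 to 72.2 in GFP and at 163 to 400.4 and 208 to 397 in Tom. Mouse 817 stood apart among the DKO*-mT/mG mice, with the lowest Jun and Junb in both of its GFP libraries and the highest in both of its Tom libraries. Krt15 was listed at exactly 0 in the HF-SC Co library of mouse 828, while the other HF-SC Co libraries were at 11261 and 11764 FPKM. That value was treated as missing, so HF-SC Co has 2 values for Krt15. Transcripts of other cells were read from marker lists. Summed levels were 4.61 to 10.6 FPKM in Co and 105 to 807 FPKM in DKO*-mT/mG groups for 10 leukocyte genes, mostly Cd74, which keratinocytes can also express, while Ptprc, the CD45 gene, was at most 0.946 FPKM. Of these genes 3 to 8 reached 1 FPKM in HF-SC GFP and Tom libraries, against 2 in each HF-SC Co library. Of 6 tested, 4 were called higher than Co in HF-SC GFP and 3 in HF-SC Tom, with 0 lower. Over all genes 18.5% and 22.3% were higher. Fcer1g and Tyrobp were among those in HF-SC GFP (log2 differences 1.41 and 1.10). Not all 6 would have passed the filter of 1 FPKM in 3 libraries without HF-SCs of mutant skin, so the counts are a description. Suprabasal keratinocyte genes summed to 765 to 976 FPKM in HF-SC Co, 1741 to 3512 FPKM in HF-SC GFP, 1666 to 2110 FPKM in HF-SC Tom and 3883 to 8633 FPKM in b-KCs. The part of either in the members' values was not tested. In bulk RNA of sorted cells, fewer cells of a type and less RNA per cell cannot be told apart.

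HF-SC Co and b-KC Co were compared to see which of the 9 genes mark the CD34+ sort in control skin. Krt15, Lgr5, Postn, Fgf18 and Cd200 were higher in HF-SC Co, Plet1 was lower, and Lgr6 and Lrig1 did not differ by the test. Of the 9 members, 7 were called at an adjusted p under 0.05 (6 higher and 1 lower), against 52.0% of the 12751 genes tested (24.6% higher and 27.3% lower). Under a stricter rule, an adjusted p under 0.01 with a log2 difference of at least 2, the count was 5 of 9 against 5.65%. These counts include Cd34, whose protein was the gate, and Fgf18, which passed the filter of 1 FPKM in 3 libraries through HF-SCs alone, so both had to differ. Without them 5 of 7 were called (4 higher and 1 lower), 3 of them under the stricter rule. The Cd34 transcript was at 889, 639.8 and 680.2 FPKM in HF-SC Co of mice 810, 825 and 828 and at 2.04, 1.13 and 1.18 FPKM in b-KC Co. This difference is a property of the sort, and nothing is read from its call.

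**Figure D1:**
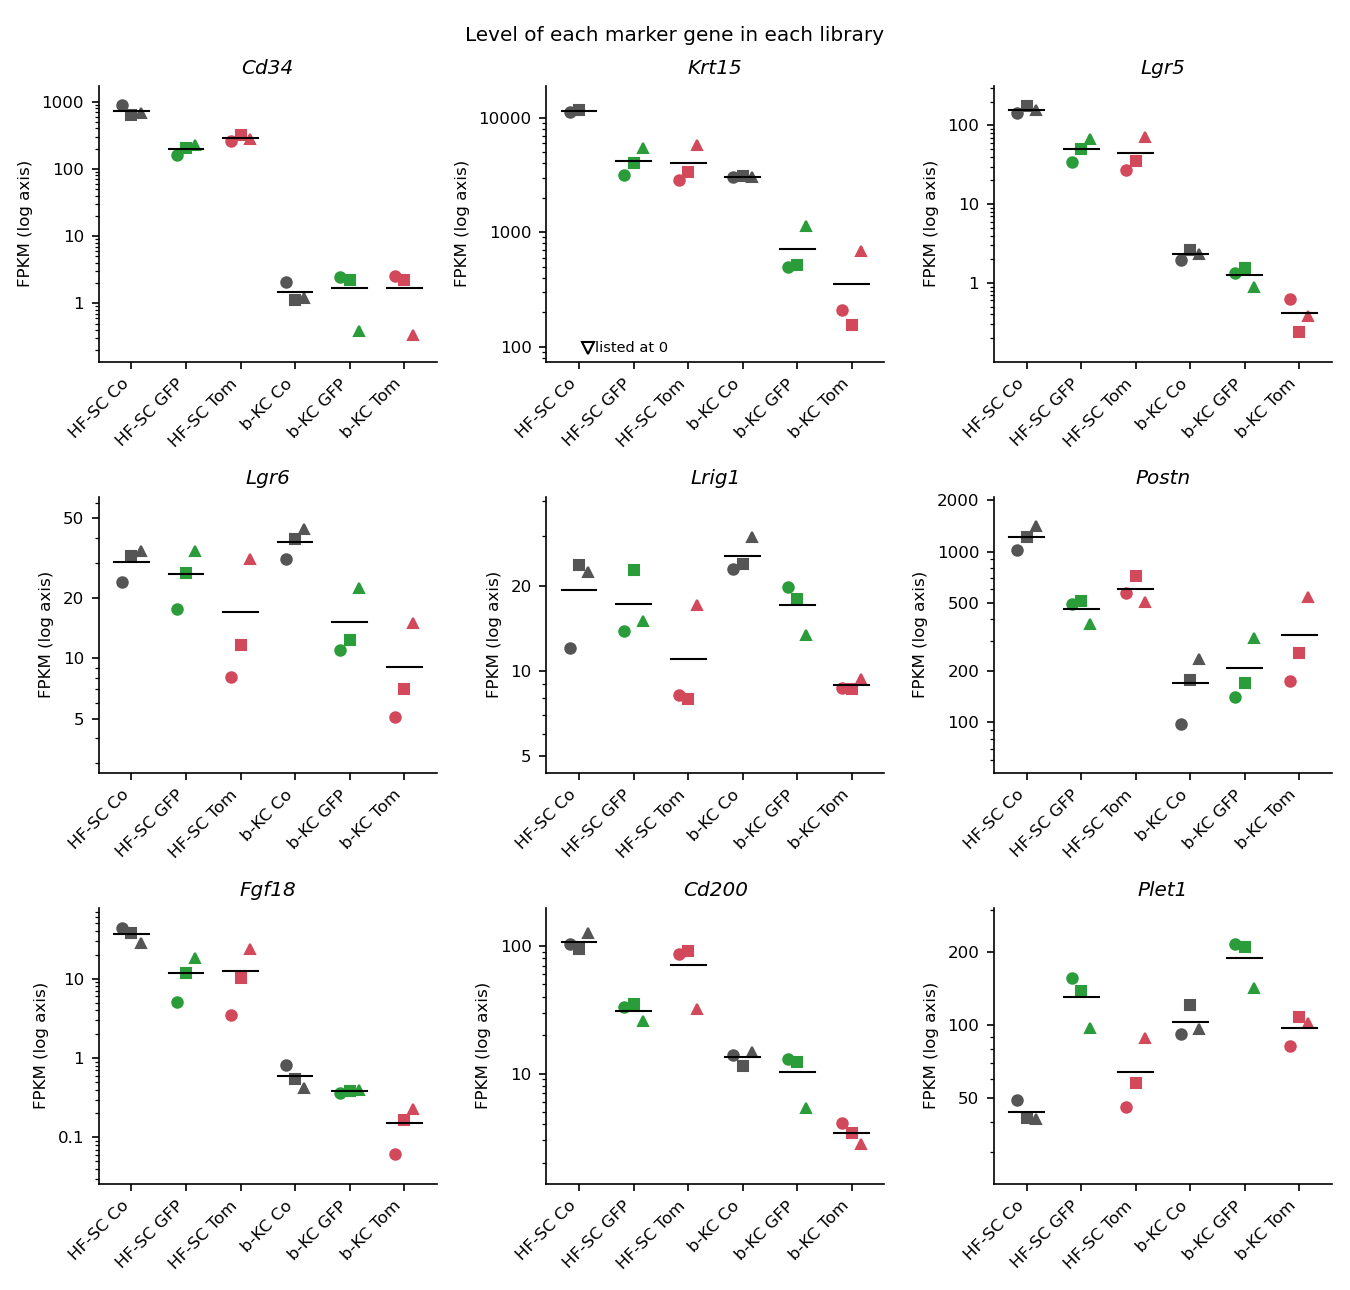
FPKM (log axis) of the 9 marker genes in each library, 1 panel per gene, with the 6 groups along the x axis; circles, squares and triangles are mice 810, 825 and 828 in Co and 814, 815 and 817 in DKO*-mT/mG, horizontal lines are group means, and the open triangle is the Krt15 value listed at 0. HF-SC Co stands highest for Cd34, Krt15, Lgr5, Postn, Fgf18 and Cd200, whereas the highest Plet1 mean, 189.6 FPKM, is that of b-KC GFP.

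Lgr5, the R-spondin receptor of the lower bulge, was at 143, 175 and 156 FPKM in HF-SC Co and at 1.98, 2.63 and 2.33 FPKM in b-KC Co (mice 810, 825 and 828 in this order here and below). The 2 groups were far apart, with means of 158 ± 16.0 and 2.31 ± 0.330 (SD, n = 3), a ratio of 68.3. On the log2(FPKM + 1) scale used for all tests the difference was 5.58 ± 0.29 (SE), with an adjusted p of 8.6e-10 (limma, Benjamini-Hochberg over all genes tested). Fgf18, the growth factor of the resting bulge, was at 43.4, 37.6 and 28.6 FPKM in HF-SC Co and at 0.812, 0.546 and 0.414 FPKM in b-KC Co. The b-KC Co values stand for only 9.17 to 20.5 implied reads, and the ratio of the means was 61.8 (log2 difference 4.55 ± 0.46, given as a description). The pseudocount of 1 understates the change of genes as low as these 2 in b-KCs.

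Postn was at 1028, 1219 and 1409 FPKM in HF-SC Co and at 98.0, 176 and 236 FPKM in b-KC Co, 7.17-fold apart in the means (log2 difference 2.91 ± 0.39, adjusted p = 1.47e-05). Cd200 was at 103, 94.4 and 126 FPKM against 14.0, 11.5 and 14.8 FPKM, 8.07-fold apart (2.92 ± 0.34, adjusted p = 3.68e-06). Both genes had a clear level in b-KC Co, unlike Lgr5 and Fgf18, and their groups did not overlap. Fibroblasts also make periostin, and 8 fibroblast genes summed to 70.7 to 119 FPKM in HF-SC Co and to 10.0 to 14.0 FPKM in b-KC Co. They were thus higher in the same sort as Postn, and their part in its difference was not tested. Krt15 was at 11261 and 11764 FPKM in HF-SC Co (mean 11512 ± 355, SD, n = 2) and at 3038, 3102 and 3063 FPKM in b-KC Co, so the keratin was abundant in both sorts and 3.75-fold higher in HF-SCs (1.91 ± 0.53, adjusted p = 0.00781). The Krt15 call rests on 2 HF-SC values and was lost without mouse 810 (adjusted p = 0.065) and without mouse 825 (adjusted p = 0.0722). With the 0 used as listed, the Krt15 difference was -2.59 (adjusted p = 0.371).

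Plet1, the upper-follicle antigen, ran the other way. It was at 49.1, 41.4 and 41.1 FPKM in HF-SC Co and at 92.4, 121 and 96.6 FPKM in b-KC Co, with no overlap and means 2.36-fold apart (log2 difference -1.21 ± 0.23, adjusted p = 0.000489). Lgr6 was at 24.1, 32.6 and 34.4 FPKM in HF-SC Co and at 31.3, 39.6 and 44.2 FPKM in b-KC Co, with overlapping groups (-0.33, 95% interval -1.23 to 0.57, adjusted p = 0.541). Lrig1, at 12.0, 23.7 and 22.4 FPKM against 22.9, 23.96 and 29.7 FPKM, overlapped as well (-0.43, interval -1.02 to 0.17, adjusted p = 0.216). Beside Cd34 and Fgf18, 4 members were thus called higher in CD34+ cells. Lgr6, Lrig1 and Plet1, known from the follicle above the bulge, were not called higher there. Within each control mouse, Lgr6 and Lrig1 were lower in HF-SCs than in b-KCs in 3 of 3, and with mouse as a fixed block both passed the threshold (adjusted p = 0.0138 and 0.0487), which with Cd34 and Fgf18 made all 9 members called, where 66.9% of all genes were called in that fit.

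Mutant and non-mutant HF-SCs were each compared with HF-SC Co. Cd34, Krt15, Lgr5, Postn and Fgf18 fell in GFP and in Tom HF-SCs, Cd200 fell in GFP, Lrig1 fell in Tom, and Plet1 rose in GFP. In HF-SC GFP 7 of 9 members were called (1 higher and 6 lower), against 38.5% of all genes tested (18.5% higher and 20.0% lower). In HF-SC Tom 6 of 9 were called, all lower, against 44.4% of all genes tested (22.3% higher and 22.1% lower). The median log2 difference of the 9 members was -1.49 in GFP and -1.02 in Tom, where that of all genes was -0.05 and -0.04. The 2 comparisons share the HF-SC Co libraries, and under the stricter rule no member was called in either, where 3.07% and 4.09% of all genes were. The Tom count was 3 without the filter on low genes, without mouse 815 or without mouse 825, where 32.9%, 31.1% and 34.1% of all genes were called.

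**Figure D2:**
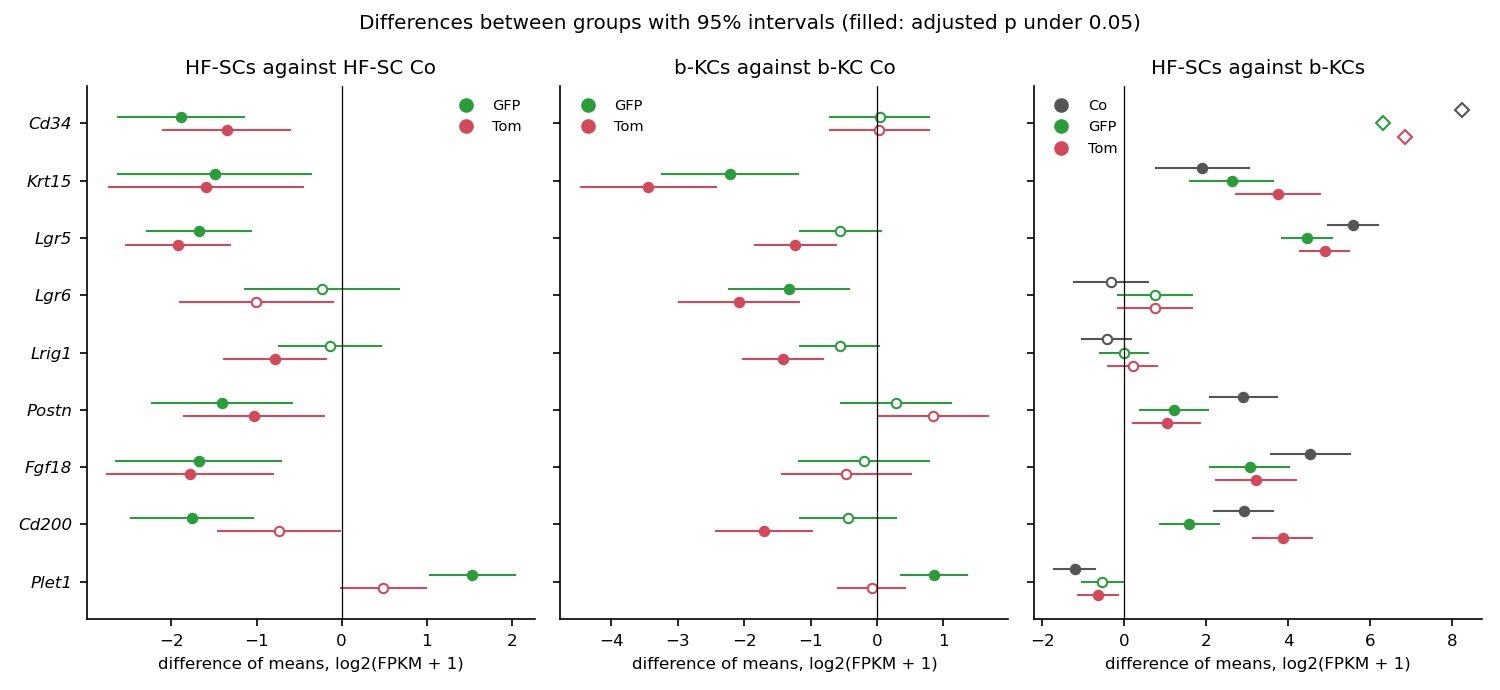
Log2 difference, on the log2(FPKM + 1) scale, of each marker gene with its 95% interval, filled where the adjusted p was under 0.05: GFP and Tom HF-SCs against HF-SC Co (first panel), GFP and Tom b-KCs against b-KC Co (second panel), and HF-SCs against b-KCs in Co, GFP and Tom (the last panel, Cd34 as an open diamond because it was the gate). In the first panel 7 members have a filled point below 0 in GFP or Tom or both, and Plet1 has one above 0 in GFP. In the second panel the Krt15 points, at -2.21 and -3.44, lie lowest.

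Cd34 was at 161, 206 and 228 FPKM in the HF-SC GFP libraries from mice 814, 815 and 817 and at 259.6, 319 and 279.6 FPKM in HF-SC Tom (this order of mice holds below). All 6 libraries were below the lowest HF-SC Co value of 639.8 FPKM, although every one of these sorts was gated on the CD34 protein. The mean of 736 ± 134 FPKM in Co (SD, n = 3) was 3.71-fold that of GFP, 198 ± 34.4, and 2.58-fold that of Tom, 286 ± 30.0 FPKM. The Cd34 log2 difference was -1.89 ± 0.35 in GFP (limma, adjusted p = 0.000586) and -1.35 ± 0.35 in Tom (adjusted p = 0.00575), and the Tom call was lost with a pseudocount of 0.1 (adjusted p = 0.0832).

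Cd34 is also expressed by endothelial cells, and the labels of these sorts name no marker that removes them. The study's methods list a CD31 stain, a gate that would do so, among stains used depending on the experiment, without saying whether it was used here. The summed level of 16 endothelial genes was 72.9 to 116 FPKM in HF-SC Co, 5.45 to 44.4 FPKM in HF-SC GFP and 1852, 1804 and 558 FPKM in HF-SC Tom of mice 814, 815 and 817, against 2.87 to 13.6 FPKM in b-KCs. Against HF-SC Co all 16 were called higher among Tom cells, beside 22.3% of all genes, and 11 of 16 lower among GFP cells, beside 20.0%, and none of their defining markers was at 0 in HF-SC Tom. All 16 reached 1 FPKM in HF-SC Tom of mice 814 and 815, but 12 to 14 did in HF-SC Co. Some may thus have passed the filter through HF-SC Tom alone, where they had to be higher, so the count for Tom cells is a description. Pecam1, the CD31 antigen, was at 209, 234 and 66.3 FPKM in HF-SC Tom and at 8.62 to 12.9 FPKM in HF-SC Co. Cd200 is another gene of endothelial cells. In HF-SC Tom Cd200 was lowest in mouse 817, which had the lowest endothelial sum, but Cd200 was lowest in that mouse in all 4 DKO*-mT/mG groups, b-KCs included, and Cd34 in HF-SC Tom was lowest in mouse 814. The part of these cells in the Cd34 and Cd200 values was not tested.

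**Figure D3:**
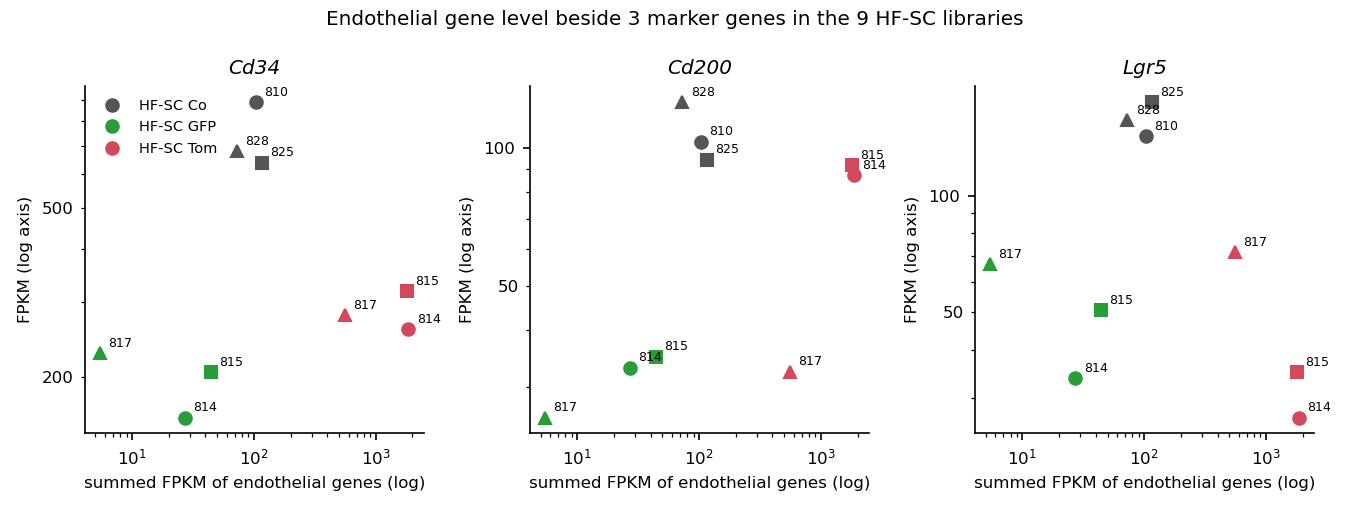
FPKM of Cd34, Cd200 and Lgr5 (y axes, log scale) against the summed FPKM of 16 endothelial genes (x axis, log scale) in the 9 HF-SC libraries, coloured by group. The Tom libraries of mice 814 and 815 lie far to the right, at 1852 and 1804 FPKM, with Cd200 at 87.3 and 91.7 FPKM, and the Tom library of mouse 817 lies at 558 FPKM with Cd200 at 32.4 FPKM.

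Cd200 was at 33.0, 34.9 and 25.7 FPKM in HF-SC GFP, all below the 94.4 to 126 FPKM of HF-SC Co. Its mean there, 31.2 ± 4.90 FPKM, was 3.46-fold under that of Co, 108 ± 16.5 FPKM (log2 difference -1.76 ± 0.34, adjusted p = 0.000765). In HF-SC Tom, Cd200 was at 87.3, 91.7 and 32.4 FPKM, 2 libraries near the Co range and 1 at the GFP level. That difference was -0.74 (95% interval -1.46 to -0.02, adjusted p = 0.0886) and did not pass the threshold.

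Lgr5 was at 33.8, 50.6 and 66.6 FPKM in HF-SC GFP and at 26.7, 35.1 and 71.4 FPKM in HF-SC Tom. No library of either group reached the 143 FPKM of the lowest HF-SC Co library, and the fall was 3.14-fold in GFP and 3.56-fold in Tom by the means. The log2 differences for Lgr5 were -1.68 ± 0.29 (adjusted p = 0.000292) and -1.93 ± 0.29 (adjusted p = 6.87e-05), and the calls were kept under every alternative other than the stricter rule. Fgf18 was at 5.16, 11.9 and 18.4 FPKM in GFP and at 3.50, 10.2 and 23.7 FPKM in Tom, all below the lowest Co value of 28.6 FPKM. Its log2 differences were -1.68 ± 0.46 (adjusted p = 0.00883) and -1.78 ± 0.46 (adjusted p = 0.00533). Lgr5 and Fgf18 shared an order of mice in both fractions, with 814 lowest and 817 highest.

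Krt15 was at 3163, 4004 and 5405 FPKM in HF-SC GFP and at 2848, 3342 and 5841 FPKM in HF-SC Tom, all below both HF-SC Co values. Beside the 3038 to 3102 FPKM of b-KC Co, only the Tom library of mouse 814 was lower and the other 5 were higher. The means of 4191 ± 1132 and 4011 ± 1605 FPKM (SD, n = 3) were 2.75-fold and 2.87-fold under that of Co. The Krt15 differences passed the threshold narrowly, at -1.49 ± 0.53 (adjusted p = 0.0379) in GFP and -1.59 ± 0.53 (adjusted p = 0.0252) in Tom. The GFP call was lost without each of the mice 810, 814, 815, 825 and 828 (adjusted p = 0.129, 0.126, 0.0986, 0.148 and 0.0616), and the Tom call without 810, 814, 815 and 825 (adjusted p = 0.0967, 0.0997, 0.0853 and 0.116). With the 0 of mouse 828 used as listed, both Krt15 differences turned positive, at 3.005 and 2.90 (adjusted p = 0.328 and 0.331). Krt15 was called in neither fraction without the filter on low genes (adjusted p = 0.091 in GFP and 0.0621 in Tom) or with only the groups compared in the fit (0.0585 and 0.0845).

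Postn, the matricellular protein, was at 491, 510.0 and 376 FPKM in HF-SC GFP and at 576, 721 and 504 FPKM in HF-SC Tom. All were below the lowest HF-SC Co value of 1028 FPKM, 2.65-fold lower by the means in GFP and 2.03-fold in Tom. The Postn differences were -1.41 ± 0.39 (adjusted p = 0.00932) and -1.02 ± 0.39 (adjusted p = 0.0423), and the Tom call was lost without mice 814, 815, 825 and 828 (adjusted p = 0.0768, 0.092, 0.106 and 0.118) and without the filter (0.0673). The summed level of 8 fibroblast genes, the other cells that make periostin, was 70.7 to 119 FPKM in HF-SC Co, 33.2 to 138 in GFP and 36.6 to 130 in Tom, and these ranges overlapped. Their part in the Postn values was not tested.

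Lgr6 and Lrig1 are markers of the isthmus and the junctional zone. Lgr6 was at 17.7, 26.7 and 34.5 FPKM in HF-SC GFP, 1 library below, 1 within and 1 just above the range of HF-SC Co (-0.23, 95% interval -1.14 to 0.67, adjusted p = 0.696). In HF-SC Tom it was at 8.04, 11.7 and 31.4 FPKM, 2 mice below the Co range and mouse 817 within it. That Lgr6 difference of -1.001 ± 0.43 had an adjusted p of 0.0679 and passed the threshold with mouse as a random block (0.0253) and without mouse 817 (-1.53, adjusted p = 5.1e-05). Lrig1 in GFP, at 13.8, 22.8 and 15.1 FPKM, overlapped Co (-0.14, interval -0.73 to 0.46, adjusted p = 0.727). In Tom Lrig1 was at 8.19, 7.94 and 17.1 FPKM, again with mouse 817 inside the Co range, and the difference of -0.78 ± 0.28 was called (adjusted p = 0.0335). This Lrig1 call was lost without mice 814, 815, 825 and 828 (adjusted p = 0.16, 0.17, 0.157 and 0.135), with only the groups compared in the fit (0.133) and without the filter on low genes (0.0513).

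Plet1 rose in mutant HF-SCs. It was at 157, 139 and 97.6 FPKM in HF-SC GFP, all above the 41.1 to 49.1 FPKM of HF-SC Co, with a mean of 131 ± 30.5 against 43.9 ± 4.51 FPKM (SD, n = 3), a ratio of 2.99 (log2 difference 1.54 ± 0.23, adjusted p = 0.000111). The GFP level of Plet1 in HF-SCs overlapped that of b-KC Co. In HF-SC Tom Plet1 was at 46.0, 57.9 and 88.7 FPKM, of which 814 lay in the Co range and 815 and 817 above it. That difference was 0.49 (95% interval -0.01 to 0.99, adjusted p = 0.101), and without mouse 814 it passed the threshold (0.70, adjusted p = 0.0338). The same mouse order, 814 lowest and 817 highest, held for Krt15, Lgr5, Lgr6, Fgf18 and Plet1 in HF-SC Tom.

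In b-KCs the same comparison with Co was made for GFP and Tom cells. Krt15 and Lgr6 fell in both GFP and Tom b-KCs, Lgr5, Lrig1 and Cd200 fell in Tom b-KCs, and Plet1 rose in GFP b-KCs. The counts were 3 of 9 members in b-KC GFP (1 higher and 2 lower), against 41.6% of all genes (20.3% higher and 21.3% lower), and 5 of 9 in b-KC Tom, all lower, against 45.9% of all genes (22.6% higher and 23.3% lower). Under the stricter rule the counts were 1 against 1.88% in GFP and 2 against 2.76% in Tom. The count in GFP was thus near the background and that in Tom not far above it. The median over the 9 members was -0.43 in GFP and -1.23 in Tom, with -0.03 and -0.02 over all genes.

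Krt15 had the largest called log2 difference from Co of any member in either sort. It was at 496, 513 and 1137 FPKM in b-KC GFP and at 209, 155 and 681 FPKM in b-KC Tom, with all 6 libraries far below the 3038 to 3102 FPKM of b-KC Co. The mean of Co was 4.29-fold that of GFP, 715 ± 365 FPKM, and 8.80-fold that of Tom, 349 ± 289 FPKM (SD, n = 3). The Krt15 differences of -2.21 ± 0.48 (limma, adjusted p = 0.00244) and -3.44 ± 0.48 (adjusted p = 6.33e-05) stayed called whichever of the 6 mice was left out, and were lost with the 0 values as listed (adjusted p = 0.465 and 0.238), since all 6 groups share 1 estimate of the spread. In both fractions mouse 817 was the highest.

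Lgr6, which marks interfollicular basal cells as well as the isthmus, was at 11.1, 12.4 and 22.4 FPKM in b-KC GFP and at 5.09, 7.04 and 15.0 FPKM in b-KC Tom. Both groups were below the 31.3 FPKM of the lowest b-KC Co library, 2.51-fold and 4.25-fold lower by the means. The Lgr6 difference was -1.32 ± 0.43 in GFP (adjusted p = 0.0213) and -2.08 ± 0.43 in Tom (adjusted p = 0.00112). The GFP call for Lgr6 was lost without mice 814, 815, 825 and 828 (adjusted p = 0.0501, 0.127, 0.0697 and 0.0874). Lrig1 was at 19.8, 18.02 and 13.4 FPKM in GFP (-0.56 ± 0.28, adjusted p = 0.119) and at 8.68, 8.66 and 9.34 FPKM in Tom. The Tom values of Lrig1 lay closely together and far below the 22.9 to 29.7 FPKM of Co, 2.87-fold lower (-1.41 ± 0.28, adjusted p = 0.000889).

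Cd200 in b-KC Tom, at 4.12, 3.41 and 2.82 FPKM, was below the 11.5 to 14.8 FPKM of Co in all mice, 3.88-fold lower (-1.70 ± 0.34, adjusted p = 0.00094). In b-KC GFP it was at 13.0, 12.3 and 5.39 FPKM, within the Co range in 2 mice and below it in 817 (-0.43, adjusted p = 0.317). Lgr5 was low in all b-KCs, at 1.35, 1.57 and 0.879 FPKM in GFP (-0.56, 95% interval -1.16 to 0.05, adjusted p = 0.131) and at 0.631, 0.237 and 0.375 FPKM in Tom. The Tom values stand for 22.3 to 64.1 implied reads and were 5.58-fold under Co (-1.23 ± 0.29, adjusted p = 0.00274). With only the groups compared in the fit, Lgr5 and Lrig1 were called in GFP too (adjusted p = 0.0242 and 0.0351), 5 members in place of 3, where 46.2% of all genes were called.

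Plet1 was at 216, 211 and 142 FPKM in b-KC GFP, above the 92.4 to 121 FPKM of Co in all mice and the highest level of this gene in any group. The mean of 189.6 ± 41.1 FPKM was 1.84-fold that of Co, 103 ± 15.4 FPKM (log2 difference 0.86 ± 0.23, adjusted p = 0.00939), and the call was lost without mouse 815 (adjusted p = 0.0855). In b-KC Tom Plet1 was at 82.4, 108 and 102 FPKM, within the Co range in 2 mice (-0.08, interval -0.58 to 0.42, adjusted p = 0.802). Postn in b-KCs showed no fall. It was at 140.1, 170.5 and 312 FPKM in GFP (0.29, adjusted p = 0.575) and at 174, 256 and 539 FPKM in Tom (0.85, interval 0.03 to 1.67, adjusted p = 0.0834), and without mouse 814 the Tom difference was called (1.21, adjusted p = 0.0341). The 8 fibroblast genes summed to 10.0 to 14.0 FPKM in b-KC Co, 17.1 to 30.6 in b-KC GFP and 27.4 to 37.2 in b-KC Tom. Of 6 tested, 1 was called higher than Co in each fraction, where 20.3% and 22.6% of all genes were higher. Their part in the Postn values was not tested.

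Cd34 and Fgf18 were low in b-KCs, Cd34 with 17.7 to 140.4 implied reads per library and Fgf18 with 1.41 to 20.5. Cd34 was at 2.43, 2.24 and 0.382 FPKM in b-KC GFP and at 2.53, 2.21 and 0.341 FPKM in b-KC Tom, with mouse 817 below Co and the other mice above it in both fractions. The Cd34 differences were 0.04 in each (adjusted p = 0.942 and 0.949). They turned negative without any of mice 814, 815, 825 and 828, down to -0.19 and -0.22, and were called without mouse 817 (0.46 and 0.48, adjusted p = 0.0426 and 0.0387). Fgf18 was at 0.362, 0.389 and 0.398 FPKM in b-KC GFP and at 0.0613, 0.165 and 0.230 FPKM in b-KC Tom, where 1.41 to 4.94 reads stand behind a value and 3 reads correspond to 0.130 to 0.140 FPKM. The Fgf18 differences of -0.19 and -0.46 were not called (adjusted p = 0.762 and 0.431), but the Tom difference was called with a pseudocount of 0.1 (-1.47, adjusted p = 0.0351) and with only the groups compared (adjusted p = 0.0109). A change of Fgf18 in b-KCs was not firmly detectable at this depth.

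GFP and Tom cells came from the same 3 mice, and their comparison asks what differs between mutant cells and their neighbours. Of the 9 members Plet1 alone was called in HF-SCs, 1 of 9 against 8.61% of all genes (2.82% higher and 5.8% lower). Under the stricter rule 0 of 9 were called in either sort, against 1.98% of all genes in HF-SCs and 0.0863% in b-KCs. None was called in b-KCs at an adjusted p under 0.05, against 1.71% of all genes (1.19% higher and 0.518% lower), although 5 had an unadjusted limma p under 0.05: Krt15 (0.021), Lgr5 (0.0315), Lrig1 (0.00791), Cd200 (0.00191) and Plet1 (0.00109).

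**Figure D4:**
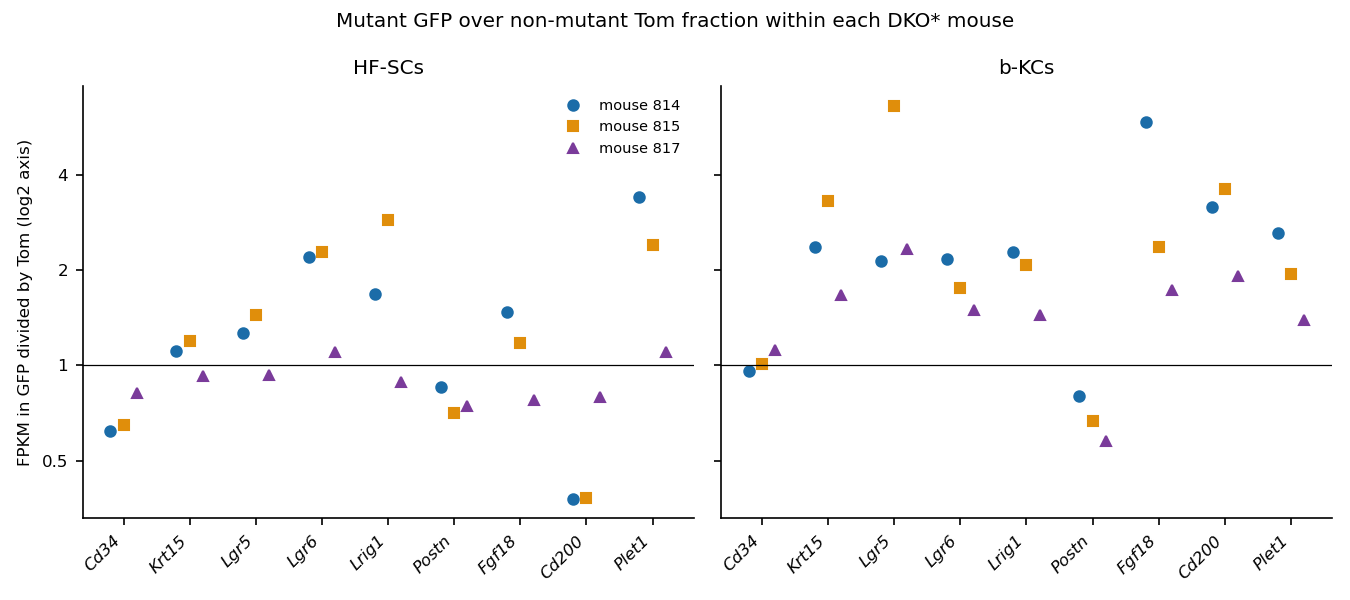
Ratio of GFP to Tom FPKM in the same mouse (log2 axis, 1 = equal) for each marker gene in HF-SCs and in b-KCs, with the circle, square and triangle for mice 814, 815 and 817. Plet1 lies above 1 in 3 of 3 mice of both sorts, and Cd200 lies below 1 in HF-SCs, at 0.379, 0.381 and 0.792, and above 1 in b-KCs, at 3.16, 3.61 and 1.91.

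The GFP to Tom ratio of Plet1 was 3.41, 2.40 and 1.10 in HF-SCs of mice 814, 815 and 817 and 2.62, 1.95 and 1.40 in b-KCs. It was above 1 in 6 of 6 pairs, with mouse 817 the lowest in both sorts. The Plet1 difference in HF-SCs was 1.04 ± 0.23 (95% interval 0.55 to 1.54, adjusted p = 0.00879), and it was no longer called without mouse 814 (0.69, adjusted p = 0.204), without mouse 815 (0.94, adjusted p = 0.221), with mouse as a fixed block (adjusted p = 0.146) or with only the groups compared (adjusted p = 0.138). In b-KCs the Plet1 difference was 0.94 ± 0.23 (adjusted p = 0.0573), and it was called with mouse as a random block (adjusted p = 0.0239) and not as a fixed block (0.0509).

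Cd200 lay on opposite sides in the 2 sorts. In HF-SCs Tom was 2.64, 2.62 and 1.26-fold above GFP in the 3 mice (log2 difference of GFP from Tom -1.02, 95% interval -1.74 to -0.30, adjusted p = 0.0792) and the gap was smallest in mouse 817. In b-KCs, where Pecam1 was at most 0.881 FPKM, GFP was 3.16, 3.61 and 1.91-fold above Tom (1.26 ± 0.34, adjusted p = 0.0775). With mouse as a random block both Cd200 differences passed the threshold (adjusted p = 0.0117 for HF-SCs, 0.0084 for b-KCs). As a fixed block the HF-SC difference did not (0.0868) and the b-KC difference did (0.0318).

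In b-KCs the GFP to Tom ratio was above 1 in all 3 mice for Krt15 (2.37, 3.30 and 1.67), Lgr5 (2.14, 6.62 and 2.34), Lgr6 (2.17, 1.76 and 1.495) and Lrig1 (2.28, 2.08 and 1.44). Postn alone among the well measured members was below 1 in all 3 mice, at 0.803, 0.666 and 0.578. With mouse as a fixed block Krt15, Lgr6, Lrig1 and Cd200 were called in b-KCs (adjusted p = 0.0419, 0.0467, 0.0472 and 0.0318), 4 members in place of 0, where 3.77% of all genes were called. With the random block the members called were Cd200 and Plet1 alone. In HF-SCs the ratios for Krt15 (1.11, 1.20 and 0.925), Lgr5 (1.26, 1.44 and 0.932), Lrig1 (1.69, 2.87 and 0.884) and Fgf18 (1.47, 1.17 and 0.775) were above 1 in mice 814 and 815 and below 1 in mouse 817. Lgr6 was at 2.20, 2.29 and 1.10, and Cd34 at 0.619, 0.646 and 0.816, each on 1 side in 3 of 3 mice, without a call (adjusted p = 0.347 and 0.438).

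Many of these calls depended on mouse 817, among the members as among all genes. Without it, Cd34, Lgr6, Lrig1, Cd200 and Plet1 were called between GFP and Tom HF-SCs, 5 in place of 1, where the share of all genes called rose from 8.61% to 22.9%, with Cd200 at -1.37 (adjusted p = 1.3e-05) and Cd34 at -0.66 (adjusted p = 0.0305). Without it 6 members were called between GFP and Tom b-KCs in place of 0, where the share of all genes rose from 1.71% to 6.69%, among them Krt15 (1.48, adjusted p = 0.00223), Cd200 (1.52, adjusted p = 5.6e-05) and Plet1 (1.17, adjusted p = 0.00102). This mouse was also the one with the lowest Jun and Junb in GFP cells and the highest in Tom cells. Over the 4 DKO*-mT/mG groups it was the highest of the 3 mice in 4 of 4 for Krt15, Lgr6 and Fgf18 and the lowest in 4 of 4 for Cd200, and mouse 814 was the lowest in 4 of 4 for Lgr6 and Fgf18.

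The difference between the sorts was next set out within the mutant skin. Leaving out Cd34 as the gate, Krt15, Lgr5, Postn, Fgf18 and Cd200 were higher in HF-SCs than in b-KCs among GFP cells and among Tom cells, and Plet1 was lower among Tom cells. With Cd34 this made 6 of 9 members called in GFP, against 45.3% of all genes (20.7% higher and 24.5% lower), and 7 of 9 in Tom, against 49.4% (22.9% higher and 26.5% lower). The stricter rule left 4 against 1.22% in GFP and 5 against 3.92% in Tom. Without Cd34 and Fgf18, which had to differ here too, 4 of 7 were called in GFP and 5 of 7 in Tom, with 2 and 3 left by the stricter rule. Lgr5 was higher in HF-SCs by 25.0, 32.3 and 75.8-fold in GFP and 42.4, 148 and 190-fold in Tom within mice 814, 815 and 817 (log2 differences 4.46 ± 0.29, adjusted p = 3.44e-08, and 4.89 ± 0.29, adjusted p = 3.89e-09). Krt15 was 6.38, 7.81 and 4.75-fold higher in HF-SC GFP and 13.6, 21.5 and 8.58-fold higher in HF-SC Tom than in the b-KCs of the same mouse. Both Krt15 calls were lost with the values listed at 0 kept in the fit (adjusted p = 0.374 in GFP and 0.191 in Tom). For Krt15 the ratio of the control means was 3.75, but the interaction terms given below were not called for it.

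The ratio of HF-SCs to b-KCs for Postn was 3.51, 2.99 and 1.21 in GFP and 3.30, 2.82 and 0.936 in Tom, against 7.17 for the control means. The Postn differences of 1.22 ± 0.39 (adjusted p = 0.0187) and 1.04 ± 0.39 (adjusted p = 0.0366) were lost without mouse 814 (adjusted p = 0.128 and 0.225) and without mouse 815 (0.186 and 0.281), and in Tom also without 825 (0.0552), with the fixed block (0.06305), without the filter (0.05998) and with only the groups compared (0.08799). Lgr6 was above 1 in 6 of 6 pairs (1.60, 2.16 and 1.54 in GFP and 1.58, 1.66 and 2.10 in Tom), the reverse of its order in control skin. It was not called in the fit without a block (adjusted p = 0.155 and 0.154) and was called with mouse as a fixed block (0.00197 and 0.019) or a random block (0.0357 and 0.0355). Plet1 was below 1 in 6 of 6 pairs, at 0.728, 0.658 and 0.686 in GFP and 0.558, 0.535 and 0.870 in Tom. The Tom difference of Plet1 was -0.64 ± 0.23 (adjusted p = 0.0339) and was not called without mice 814, 815 and 828 (adjusted p = 0.0985, 0.258 and 0.0528) with rescaled libraries (0.0999) or with only the groups compared (0.0918), and the GFP difference of -0.53 (adjusted p = 0.0755) was called with the fixed block (0.00523).

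Whether the change from Co differed between the sorts was tested by an interaction term. In GFP cells it was called for Cd34, at -1.93 ± 0.50 (95% interval -2.98 to -0.87, limma, adjusted p = 0.0184), 1 of 9 members against 12.6% of all genes (7.35% higher and 5.22% lower). In Tom cells it was called for Postn, at -1.88 ± 0.55 (interval -3.04 to -0.71, adjusted p = 0.0288), 1 of 9 against 15.8% (10.2% higher and 5.59% lower). Both shares are near the background, and under the stricter rule 0 were called, against 0.863% in GFP and 1.98% in Tom. Cd34 fell in HF-SCs from a high level and was low in b-KCs. With a pseudocount of 0.1 its term was little changed, at -1.81, but was not called (adjusted p = 0.186). The b-KCs were gated as CD34-, which holds Cd34 low there in every group, so that this term repeats the change in HF-SCs and is not a separate result. The Cd34 call was also lost without mice 810, 814, 815, 825 and 828 (adjusted p = 0.0634, 0.101, 0.139, 0.0626 and 0.0803). The Postn call was lost without 810, 815, 825 and 828 (adjusted p = 0.103, 0.0986, 0.0816 and 0.0524). The other members had adjusted p from 0.0541 (Postn in GFP) and 0.0717 (Cd34 in Tom) upward, Krt15 in Tom having 1.85 ± 0.71 and 0.0967. With mouse as a random block 4 members were called in GFP (Lgr5, Postn and Cd200 in addition, adjusted p = 0.0377, 0.0191 and 0.0148) and 3 in Tom (Cd34 and Krt15 in addition, 0.0261 and 0.0159), where 22.6% and 24.0% of all genes were called. Without mouse 817 the counts were 8 and 7, where 30.8% and 25.4% of all genes were called.

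Across the 6 groups the members fell into 3 kinds of order. Cd34, Lgr5, Fgf18 and Cd200 had all 3 HF-SC groups above all 3 b-KC groups, with HF-SC Co on top and no overlap with the next group. The HF-SC GFP and HF-SC Tom libraries overlapped for Lgr5, Fgf18 and Cd200 but not for Cd34, where Tom was above GFP. Krt15 and Postn also had HF-SC Co on top without overlap, but the groups below it ran into b-KCs. For Krt15 HF-SC Tom overlapped b-KC Co while HF-SC GFP lay above it, and for Postn HF-SC GFP and HF-SC Tom overlapped b-KC Tom. Lgr6 and Lrig1 ran from b-KC Co down to b-KC Tom with every neighbour overlapping, and Plet1 ran from b-KC GFP down to HF-SC Co, also with every neighbour overlapping. Among b-KCs the means of Co, GFP and Tom were 2.31, 1.27 and 0.414 FPKM for Lgr5 and 0.591, 0.383 and 0.152 FPKM for Fgf18, the latter with too few reads to order the groups.

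Over the 18 libraries (17 for Krt15), which share mice and the 2 sorts, the correlation of log2(FPKM + 1) was 0.9799 between Lgr5 and Fgf18, 0.974 between Cd34 and Lgr5 and 0.906 between Cd34 and Cd200. It was 0.844 between Lgr5 and Krt15, 0.740 between Lgr6 and Krt15, 0.217 between Cd34 and Lgr6 and -0.0395 between Cd34 and Lrig1. Plet1 had negative values, at -0.626 with Cd34, -0.605 with Lgr5 and -0.503 with Krt15. Cd34 was the gate and Fgf18 passed the filter through HF-SCs alone. Their correlations, and the genes most like them, therefore follow in large part from the sort, and all these values are a description. The tested genes whose pattern was most like that of a member by the same correlation were Gm16897 (0.990, the gene that overlaps Cd34), Tcf7l1 and Eps8 (both 0.987) for Cd34, Enox1, Angptl7 and Fam171b (all 0.992) for Lgr5, and Fam171b and Adcy1 (both 0.988) and Cacnb2 (0.982) for Fgf18. For Krt15 they were Kank1 (0.982) and Prpf40b (0.978), for Cd200 Camk1 (0.982), Sepp1 (0.970) and Bambi (0.965), and for Plet1 Lipg (0.952), Cebpb (0.929) and Ceacam19 (0.927). Lgr6 was most like Trp53bp2 (0.964), Dgkd (0.954) and Phf13 (0.952), Postn most like Me3 (0.907), Fam188b (0.906) and Tctn3 (0.905), and Lrig1 most like Mcf2l (0.906), Itgb5 (0.903) and Klc3 (0.892).

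Other bulge genes were set beside the members, 16 of a list of 17 being tested. Of these, 15 were higher and 0 lower in HF-SC Co than in b-KC Co (median log2 difference 2.71, all genes -0.06), where 24.6% of all genes were higher and 27.3% lower. Tcf7l1 passed the filter through HF-SCs alone, and without it 14 of 15 were higher. In HF-SC GFP 0 were higher and 9 lower than in Co (median -0.90), and in HF-SC Tom 0 were higher and 13 lower (median -1.27). Lhx2, a transcription factor of the bulge, was at 165, 102 and 109 FPKM in HF-SC Co, at 32.3, 47.9 and 35.9 FPKM in GFP and at 17.6, 26.4 and 30.2 FPKM in Tom (log2 differences -1.66 and -2.29, adjusted p = 0.000138 and 5.1e-06). Ctgf, a matricellular protein, was at 825, 579 and 1039 FPKM in HF-SC Co, at 122, 136 and 129 FPKM in GFP and at 93.6, 130.1 and 149 FPKM in Tom (-2.61 and -2.69). S100a4 fell as well (-1.87 and -2.12). In b-KCs 7 of 16 were lower in GFP and 8 in Tom, with 0 higher, Ctgf at -1.28 and -3.06. In the comparisons with Co, 38.5% to 45.9% of all genes were called. The upper-follicle list of 5 genes had 3 higher and 0 lower in HF-SC GFP (Krt17 at 2.95, Krt79 at 1.26 and Prdm1 at 1.19), 1 higher and 1 lower in HF-SC Tom, 1 higher and 2 lower in b-KC GFP and 1 higher and 3 lower in b-KC Tom.

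**Figure D5:**
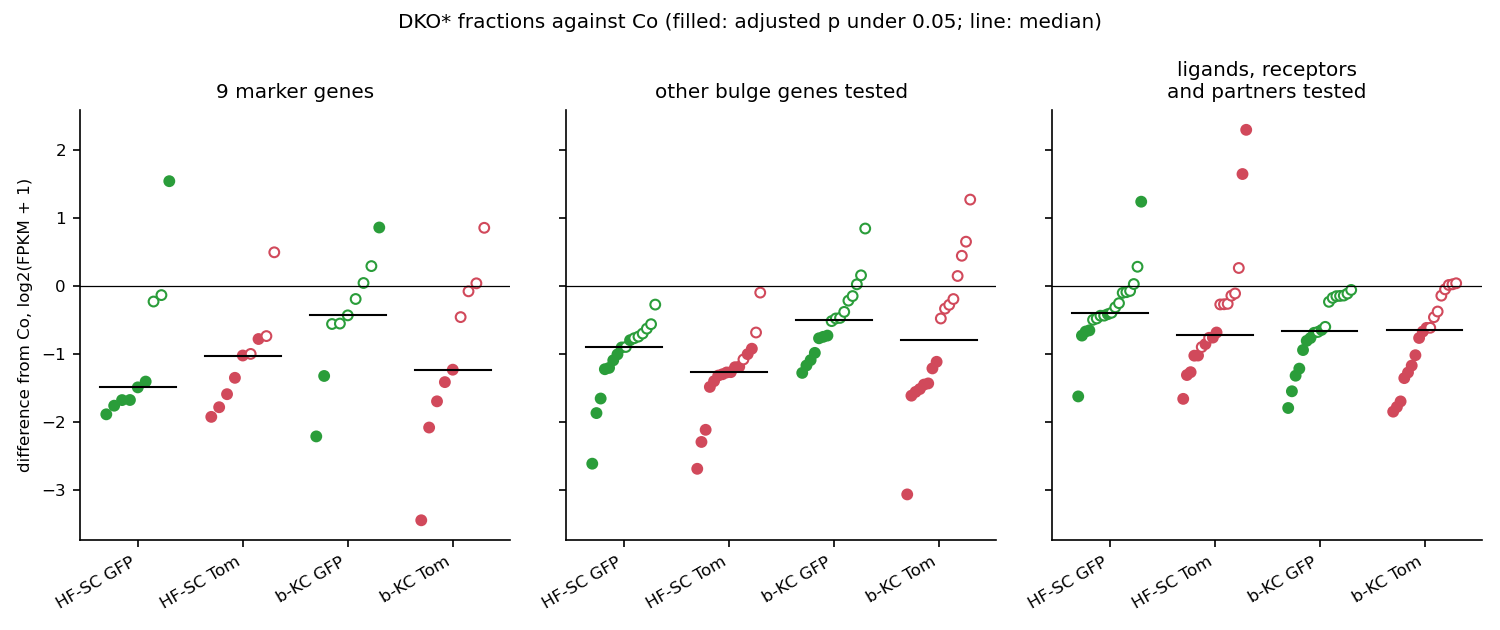
Log2 difference from Co, on the log2(FPKM + 1) scale, in GFP and Tom cells of both sorts for the 9 marker genes, 16 other bulge genes and 18 ligands, receptors and partners; each point is a gene, filled where the adjusted p was under 0.05, and the line is the median of its list. The medians of the marker genes, -1.49, -1.02, -0.43 and -1.23, and those of the other lists all lie below 0.

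The ligands, receptors and partners of the members were a list of 24, of which 18 were tested. Against Co, HF-SCs had 1 of them higher and 5 lower among GFP cells (median -0.41) and 2 higher and 8 lower among Tom cells (median -0.72). For b-KCs the counts were 0 higher and 9 lower among GFP cells (median -0.66) and 0 higher and 10 lower among Tom cells (median -0.65). Over all genes, 38.5% and 44.4% were called in the GFP and Tom comparisons of HF-SCs and 41.6% and 45.9% in those of b-KCs. Among the receptors of Fgf18, Fgfr1 was higher in HF-SC Co than in b-KC Co (67.6, 59.0 and 62.4 against 7.67, 7.18 and 8.14 FPKM, log2 difference 2.88), as its ligand was. Fgfr2 was at 137, 165 and 177 FPKM in b-KC Co, at 32.9, 34.4 and 80.7 FPKM in b-KC GFP and at 41.3, 41.0 and 66.4 FPKM in b-KC Tom (-1.80 and -1.70, adjusted p = 0.00303 and 0.00335), again with mouse 817 highest.

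In the R-spondin pathway, Lgr4, the third receptor of the family, was at 65.8, 53.0 and 53.1 FPKM in HF-SC Co and 17.8, 19.5 and 22.4 FPKM in b-KC Co (log2 difference 1.48, adjusted p = 0.000128). Lgr4 was lower than in Co in all 4 mutant-skin groups by the test, at -0.65 and -1.27 in GFP and Tom HF-SCs and at -0.69 and -1.02 in GFP and Tom b-KCs (adjusted p = 0.0455, 0.000664, 0.0343 and 0.00347). The ligand Rspo3 was at 2.30, 2.38 and 4.07 FPKM in b-KC Co, at 0.105, 0.208 and 0.687 FPKM in b-KC GFP and at 0.0788, 0.127 and 0.148 FPKM in b-KC Tom (-1.55 and -1.78, adjusted p = 3.86e-05 and 6.37e-06). Rnf43, a ubiquitin ligase that removes Wnt receptors and is held off by R-spondin and its receptors, fell in b-KC GFP from 12.8, 14.3 and 15.1 to 3.94, 4.22 and 7.46 FPKM (-1.32, adjusted p = 0.00133). The CD200 receptor Cd200r1 was at 0.178 FPKM or less in every library. Podxl2, a relative of Cd34, fell in mutant and non-mutant HF-SCs (-1.62 and -1.66, adjusted p = 5.41e-05 and 3.39e-05), whereas Podxl, another relative that endothelial cells express, rose in HF-SC Tom (2.29, adjusted p = 2.72e-07) beside the endothelial genes above. Among partners of Lrig1, Erbb3 rose in HF-SC GFP (1.23, adjusted p = 0.00364). Itgb5, an integrin chain that binds periostin, fell in b-KC Tom from 61.9, 68.9 and 67.1 to 17.6, 17.8 and 17.3 FPKM (-1.85, adjusted p = 4.62e-06).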

How the data were processed

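Sorted ear skin cells (6 groups of 3 mice) were profiled with SMART-Seq v4 and Nextera XT, kits that keep no strand, and sequenced as single-end 51-base reads on an Illumina HiSeq. The authors mapped reads to NCBI37 (mm9) with TopHat2 2.0.10 and Bowtie 1.0.0, and the deposited values are FPKM per gene and library from Cufflinks 2.2.1. Reads placed on near-identical genes may be shared or lost, and amplified reads carry no molecular identifiers, so read numbers cover counting error only. Depth was taken from the step between low FPKM values of 7151 genes with 1 transcript, which put 76.2% to 81.3% of these values at most 0.1 from a whole number of reads. It is an estimate, and no count test was run on it.

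Groups came from the labels. The 4 values of 0 in genes for which another library of the same group had at least 1000 FPKM (Krt15 in HF-SC Co of mouse 828, Krt14 in b-KC GFP of 817 and in b-KC Tom of 814 and 817) were treated as missing. limma 3.58.1 (R 4.3.3; lmFit, contrasts.fit, eBayes with trend) was fitted to log2(FPKM + 1) of 12751 genes (those that reached 1 FPKM in 3 or more of 18 libraries), all 6 groups in 1 fit, and p-values were adjusted by Benjamini and Hochberg over all of them. The 11 comparisons shared libraries. All 9 members passed the filter. Mice are the replicates. Libraries of 1 number came from the same mouse, so the numbers pair them, and the correlation of their deviations from the group means across genes was 0.0838 to 0.713. The fit without the block was kept as the main one, as its design was set without it, and fits with mouse as a random or fixed block are given where they change a call. The fixed block was fitted to the groups compared alone. It thus changes the estimate of the spread too, and a change of call with it need not come from the pairing. Other alternatives were a pseudocount of 0.1, no filter, only the groups compared, no trend, median-ratio rescaling, zeros as listed, leaving out each mouse, and adjusted p under 0.01 with a log2 difference of at least 2.

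Members and lists were chosen with earlier results of these data known. Named were all 9 members, the 3 genes most correlated with each (1 of them is not reported here), the 3 called genes of each list with the largest log2 difference, and Jun and Junb. Lgr4 in mutant skin, Cd200r1 and Ptprc fall outside this rule and were chosen after their values were seen. In data simulated for HF-SC GFP against HF-SC Co over 12751 genes, the fit called 73 of 100 genes given a log2 change of 1, 95 of 100 given 2, and 15 of 12551 given none. The submitters' notes also list GRCm38, with no role given. Positions are from the NCBI37 annotation and promoters from RefSeq (GRCm38.p6). Plots were drawn with matplotlib 3.10.9 under Python 3.11.15.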

Additional observations from a re-analysis of the deposited data

Results flagged for a closer look

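The change from Co differed between HF-SCs and b-KCs by the interaction term for 2 members, 1 of 9 in GFP cells and 1 of 9 in Tom cells, near the 12.6% and 15.8% of all genes called. For Cd34 in GFP cells the term was -1.93 on the log2 scale, with a change of -1.89 in HF-SCs and of 0.04 in b-KCs, where the CD34- gate holds Cd34 low in every group, so that the term repeats the HF-SC change. Cd34 lay below Co in 3 of 3 mutant HF-SC libraries, and the term was not called with a pseudocount of 0.1 or without any 1 of mice 810, 814, 815, 825 and 828. For Postn in Tom cells the term was -1.88, with -1.02 in HF-SCs, where 3 of 3 libraries lay below Co, and 0.85 in b-KCs, where 2 of 3 lay above Co and 1 within its range. The Postn term was not called without any 1 of mice 810, 815, 825 and 828. The part of fibroblast transcripts in this term was not tested.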

How the results depend on the processing

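Of 1431 member values under alternatives, 1253 kept direction and call, 90 lost and 63 gained the call, and 25 changed direction, mostly small differences that were not called; beyond what the alternatives change by construction, the cause was not tested. With zeros as listed Krt15 turned to -2.59 (HF-SC Co against b-KC Co), 3.005 (HF-SC GFP against Co) and 2.90 (HF-SC Tom against Co). With a pseudocount of 0.1 Cd34 turned to -0.080 and -0.11 (b-KC GFP and Tom against Co) and the Lgr5 interaction in Tom to 0.34, and with rescaling Lrig1 turned to 0.10 (HF-SC GFP against b-KC GFP). When each mouse was left out, Lgr6 and Lrig1 ranged from -0.45 to 0.018 and -0.43 to 0.031 (HF-SC GFP against Co), Fgf18 from -0.069 to 0.33 (HF-SC GFP against Tom), Cd34 from -0.19 to 0.46 and Postn from -0.060 to 0.57 (b-KC GFP against Co), Cd34 from -0.22 to 0.48 and Plet1 from -0.16 to 0.036 (b-KC Tom against Co), Cd34 from -0.014 to 0.028 (b-KC GFP against Tom), and Lrig1 from -0.17 to 0.24 and -0.093 to 0.36 (HF-SC against b-KC, GFP and Tom). Counts of members called ranged over the mice left out from 3 to 7 (HF-SC Tom against Co, 6 in the fit as reported), 0 to 5 (HF-SC GFP against Tom, 1), 1 to 4 (b-KC GFP against Co, 3), 0 to 6 (b-KC GFP against Tom, 0), 0 to 8 (interaction in GFP, 1) and 0 to 7 (interaction in Tom, 1), the highest count in each being that without mouse 817. The replicate block (mouse, same animals) gave as a random block 2 (HF-SC GFP against Tom), 2 (b-KC GFP against Tom), 4 and 3 (interactions in GFP and Tom), and as a fixed block 0 and 4 (GFP against Tom in HF-SCs and b-KCs). With only the groups compared the counts were 0 (HF-SC GFP against Tom), 5 (b-KC GFP against Co) and 5 (interaction in GFP), without a filter 3 (HF-SC Tom against Co), with a pseudocount of 0.1 3 (b-KC GFP against Tom) and 0 (interaction in GFP), and with rescaling 1 (b-KC GFP against Tom). Under the stricter rule they were 0 in the 5 comparisons HF-SC GFP and Tom against Co, HF-SC GFP against Tom and both interactions, 1 and 2 in b-KC GFP and Tom against Co, and 4 in HF-SC GFP against b-KC GFP. A fit with no trend changed no call. Fgf18 in b-KCs is limited by depth.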

Other observations

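Other upper-follicle genes can be read beside Plet1, and they did not all run as it did. Of the list of 5, 1 was higher and 2 were lower in HF-SC Co than in b-KC Co, where 24.6% of all genes were higher and 27.3% lower. Gli1 was the higher one (log2 difference 1.68), and Krt79 and Gata6 were lower (-3.70 and -1.25). In HF-SC Tom Gli1 was lower than in HF-SC Co (-0.55). These values are given as a description. Krt17, a keratin of the follicle that is also made by stressed epidermis, was higher in mutant HF-SCs than in HF-SC Co, at 219, 227 and 232 FPKM in HF-SC Co and at 2522, 1902 and 1127 FPKM in HF-SC GFP. Krt17 was also called higher in HF-SC Tom (1.65, adjusted p = 0.0107), in b-KC GFP (3.12, adjusted p = 0.000182) and in b-KC Tom (1.44, adjusted p = 0.0216), whereas Plet1 was called in GFP cells of both sorts and not in Tom cells (log2 differences 0.49 in HF-SCs and -0.08 in b-KCs). Plet1 and Krt17 were both highest in mouse 814 and lowest in mouse 817 in HF-SC GFP. Krt79, another gene of that region, was at 31.2, 22.5 and 27.9 FPKM in HF-SC Co and at 91.2, 107 and 29.2 FPKM in HF-SC GFP, where the library of mouse 817 lay within the Co range. In b-KCs Krt79 was lower in mutant skin, at 441, 322 and 338 FPKM in Co, at 202, 235 and 94.2 FPKM in GFP and at 39.2, 55.6 and 33.2 FPKM in Tom, without overlap between these 3 groups.

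Melanocyte genes summed to 19.6 to 23.6 FPKM in HF-SC Co, 13.4 to 21.8 FPKM in HF-SC GFP and 6.16 to 14.4 FPKM in HF-SC Tom. Of 6 tested, 3 were called higher and 1 lower than Co in HF-SC GFP (median log2 difference 0.83), where 18.5% of all genes were higher and 20.0% lower. In HF-SC Tom 0 were higher and 1 lower (median -0.05), where 22.3% were higher and 22.1% lower. Mural cell genes summed to 11.4 to 45.4 FPKM in HF-SCs and 1.4997 to 10.0 FPKM in b-KCs, and glial genes to at most 1.31 FPKM in any library.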
